A study of Mus musculus with 16 samples.

Results

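Expression of 36 genes of the lysosome was measured in cultured mouse macrophages given the bacterial product LPS, the REV-ERB agonist SR9009, or both. The 36 genes were taken by symbol as a functional set. No measured value entered the rule, but earlier results of these data were known when the set was chosen. They were 18 hydrolases, 3 activators and carriers, 6 subunits or partners of the proton pump and 6 membrane proteins of the lysosome and endosome. The set also holds the 3 transcription factors Tfeb, Tfe3 and Mitf. All 36 were among the 56748 genes of the count table, all are protein coding, and all passed the filter on low counts that left 13438 genes for testing.

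The macrophages were grown from the bone marrow of 4 wild-type male C57BL6 mice of unstated age in medium with supernatant of L929 cells, a fibroblast line that supplies macrophage growth factor, and were kept with less of that supernatant during treatment. Each mouse gave 1 library of each of 4 groups, 16 in all. The vehicle group received DMSO overnight. The LPS group received LPS, lipopolysaccharide of the bacterial outer membrane, at 100 ng/mL for 6 hours, and its labels do not say whether DMSO was given overnight before it. The SR9009 group received SR9009, a small molecule that activates the circadian nuclear receptors REV-ERBα and REV-ERBβ, at 10 µM for 16 hours, and the last group received SR9009 at 10 µM for 16 hours and then LPS at 100 ng/mL for 6 hours. These are bulk polyA libraries of whole cultures, so fewer cells of a type and less RNA per cell cannot be told apart, and RNA levels say nothing of how much enzyme is active.

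Lysosomes degrade what a macrophage engulfs and what autophagy delivers. Their proteases, glycosidases and lipases work at the acid pH that the vacuolar H+-ATPase (V-ATPase) maintains, and most are carried from the Golgi by mannose 6-phosphate receptors. TFEB, TFE3 and MITF are basic helix-loop-helix factors that are held in the cytoplasm by mTORC1 signalling at the lysosomal surface and, once in the nucleus, bind E-boxes of the CLEAR type in promoters of lysosomal and autophagy genes.

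The E-boxes are shown first because they are the sequence by which this family of factors is known to recognise its targets. Promoter windows from RefSeq (GRCm38.p6, 250 bases before to 50 after the start site) were found for 30 of the 36 genes, in 37 windows. The palindrome TCACGTGA, which reads the same on both strands, was in a window of 6 of the 30 genes (20.0%: Ctsa, Ctsd, Gla, Atp6v0d1, Atp6v1a and Mcoln1), against 304 of 27025 genes with a window (1.12%) and 320 of all 32851 windows (0.974%). The shorter core CACGTG, which every TCACGTGA contains, was in windows of 10 of the 30 genes (33.3%), against 8.09% of the 27025 genes and 7.15% of all windows. A longer CLEAR palindrome was in 0 of the 30 genes, against 0.37% of the 27025. The motif named M-box was in 16.7% against 4.31%, the nuclear receptor half-site in 20.0% against 18.1%, and an interferon-type (ISRE-like) motif in 6.67% against 3.99%. The 27025 genes include genes that were not tested. Among tested genes with a window, 219 had TCACGTGA and 9509 did not. The stretches before the start site that hold TCACGTGA are given 5′ to 3′ on the strand of the gene, with TCACGTGA in capitals. The match in Atp6v0d1 spans the start site and is not printed. A second match in Ctsa lies after its start.
Ctsd, chr7:142387873-142387972 on the minus strand: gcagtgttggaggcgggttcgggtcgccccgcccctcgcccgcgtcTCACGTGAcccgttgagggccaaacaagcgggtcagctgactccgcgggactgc
Mcoln1, chr8:3500427-3500518 on the plus strand: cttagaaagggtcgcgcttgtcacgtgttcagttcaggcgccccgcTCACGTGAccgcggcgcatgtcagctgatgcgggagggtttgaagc
Gla, chrX:134601147-134601255 on the minus strand: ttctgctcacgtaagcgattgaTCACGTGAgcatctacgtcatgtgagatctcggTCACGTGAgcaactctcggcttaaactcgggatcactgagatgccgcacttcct
Atp6v1a, chr16:44139338-44139437 on the minus strand: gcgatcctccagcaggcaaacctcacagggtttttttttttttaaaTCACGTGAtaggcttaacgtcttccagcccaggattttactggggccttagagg
Ctsa, chr2:164833714-164833772 on the plus strand: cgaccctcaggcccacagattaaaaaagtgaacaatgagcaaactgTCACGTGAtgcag
The match begins 99 bases before the start of Ctsd, 46 before that of Mcoln1, 132 before that of Atp6v1a and 13 before that of Ctsa. Gla, the gene of alpha-galactosidase A, holds 2 matches, which begin 228 and 195 bases before the start. A match is a run of letters and not a measured binding site.

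The libraries held 12616442 to 24214863 counts. The SR9009 library of mouse 1 stood apart: it had the lowest total, 13298 genes with a count against 16419 to 18947 in the others, the highest mitochondrial share (1.64%, others from 0.462%), and a score of 138 on the second principal component (21.7% of variance) where the others lay between -29.2 and 30.2. Results on SR9009 are therefore given from all 16 libraries and from the 15 without it. Tnf, an early LPS target, had a mean of 12.4 CPM (counts scaled to library size and composition) in DMSO and 924 in LPS. The 8 macrophage markers were all detected, with summed levels of 6183 to 9984 CPM in DMSO, 9791 to 10690 in LPS, 4670 to 7908 in SR9009 and 9415 to 9728 in SR9009 and LPS. Lyz2, one of them, was at only 9.22 to 54.6 CPM. Lyz1 is a near-identical copy, and whether reads of the pair were split or lost in counting was not tested. The summed neutrophil, dendritic, B, T and NK, mast, stromal and erythroid lists stayed at or under 7.24 CPM in every library.

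At rest, some of the members were among the most abundant RNAs of these cells and others were low. In DMSO their counts made up 4.98% ± 0.523 (SD, n = 4) of the library, against 3.36% ± 0.430 in LPS, 5.41% ± 1.43 in SR9009 (6.10% ± 0.502 without mouse 1, n = 3) and 3.87% ± 0.217 in SR9009 and LPS. These are shares of raw counts, before the scaling for composition that CPM include. The factors of that scaling were 1.16 to 1.26 in DMSO, 0.738 to 0.823 in LPS, 1.14 to 1.24 in SR9009 and 0.853 to 0.907 in SR9009 and LPS. A lower share with LPS is therefore not a lower level in CPM. Per transcript length, in the deposited FPKM values, 10 of the 36 ranked among the 46 most abundant genes of the DMSO libraries, and the lowest, Ctsk, ranked 8003. Psap, the precursor of the saposins that present lipids to hydrolases, led with 2177 ± 711 FPKM (rank 8 of all genes), followed by the cysteine protease genes Ctss (1545 ± 107) and Ctsb (1300 ± 108) and the aspartic protease gene Ctsd (1058 ± 81.4). The ranges of 1 SD around the means overlapped for Psap and Ctss, so the order of that pair is within the spread, and did not overlap between Ctss and Ctsb or between Ctsb and Ctsd. At the low end stood the transcription factor genes Tfe3 (17.1 ± 1.03), Mitf (11.5 ± 0.380) and Tfeb (6.95 ± 0.572), the calcium channel gene Mcoln1 (9.76 ± 0.275), the pump subunit gene Atp6v1h (7.06 ± 0.484), Atp6v0d2 (3.22 ± 0.428) and Ctsk (2.96 ± 0.105). Tfeb and Atp6v1h did not differ beyond their spread, nor did Atp6v0d2 and Ctsk.

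**Figure D1:**
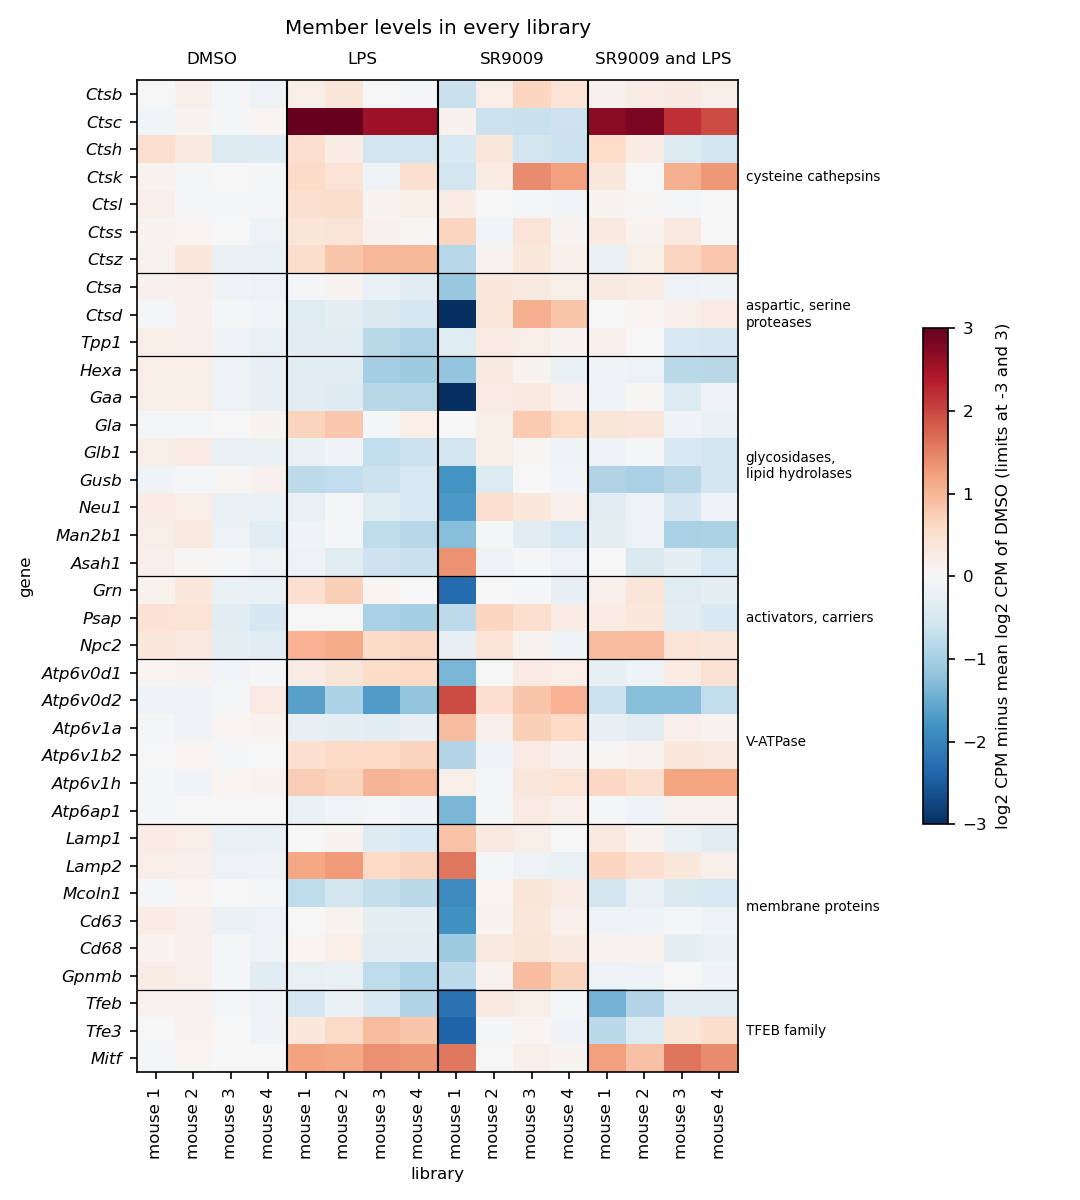
Level of each of the 36 genes (vertical axis, grouped by role) in each of the 16 libraries (horizontal axis, by group and mouse), as log2 CPM minus the mean log2 CPM of the 4 DMSO libraries, with colours limited at -3 and 3. Ctsc is the row that rises most with LPS, and the SR9009 library of mouse 1 is the column that differs from the 3 libraries of its group.

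LPS against DMSO asks how the lysosomal genes respond to a bacterial signal. The response was split: the dipeptidyl peptidase gene Ctsc rose about 8-fold, the factor gene Mitf, the membrane gene Lamp2, the exopeptidase gene Ctsz, the cholesterol carrier gene Npc2 and the pump genes Atp6v1h and Atp6v1b2 rose, and the pump gene Atp6v0d2 and the peptidase gene Tpp1 fell. By edgeR's quasi-likelihood test with Benjamini-Hochberg adjustment over all tested genes, 7 of 36 members were higher and 2 lower at an adjusted p under 0.05, where 19.4% of all tested genes were higher and 20.4% lower. The higher share thus equals the background and the lower share is below it. The median log2 fold change of the members was -0.11, beside -0.08 for all genes. Without the SR9009 library of mouse 1, which enters the fit through the shared estimate of spread, the median SE of the members went from 0.29 to 0.17, and 10 members were higher and 10 lower (background 26.8% and 30.6%), the same 9 among them. With the mouse as a block, 7 were higher and 3 lower in 16 libraries (21.3% and 23.7%) and 11 and 15 in 15 libraries (29.4% and 35.4%). Upper-quartile scaling, which moved the median of all genes by -0.19, gave 4 higher and 6 lower. Ctsc, Mitf, Atp6v1h and Atp6v0d2 passed in all 14 alternative settings, Npc2 failed without mouse 3 or mouse 4, and Lamp2, Ctsz, Atp6v1b2 and Tpp1 each failed without mouse 2, 3 or 4 and with no filter (adjusted p up to 0.174). Lamp2, Ctsz and Atp6v1b2 also failed under upper-quartile scaling and Tpp1 under RLE scaling. The CPM ranges of LPS and DMSO did not overlap for 20 members, 9 higher and 11 lower (background 27.0% and 30.5%). The ratio within each mouse pointed the same way in all 4 mice for 33, 13 higher and 20 lower. The share of all genes with such agreement was not computed, so this count does not show a trait particular to the members.

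Among the 7 cysteine cathepsins, 2 rose and none fell (19.4% and 20.4% of all tested genes), and 3 rose without the doubted library (26.8%). Ctsc (chr7:87927293-87960096 in GRCm39, as are the coordinates that follow) encodes cathepsin C, which activates the serine proteases of leukocyte granules. It was at 376, 419, 387 and 415 CPM in DMSO of mice 1 to 4 and at 4212, 3964, 2326 and 2376 CPM in LPS. Every LPS library was above every DMSO library, with mice 1 and 2 higher than mice 3 and 4, and the log2 fold change was 3.01 ± 0.28 (SE; edgeR adjusted p = 9.11e-07). Ctsz (chr2:174269286-174280832) encodes cathepsin Z, a carboxypeptidase. It was at 911, 1056, 728 and 720 CPM in DMSO and at 1206, 1506, 1684 and 1678 CPM in LPS. The groups did not overlap, and here mice 3 and 4 had the larger rise (log2 fold change 0.83 ± 0.27, edgeR adjusted p = 0.0229). Of the other 5, Ctsl, the cathepsin L gene, did not pass in edgeR with 16 libraries (0.33 ± 0.16, adjusted p = 0.118) and passed without the doubted library (0.31 ± 0.12, edgeR adjusted p = 0.0394) and in DESeq2 with all 16 (adjusted p = 0.0331), while Ctsb, Ctss, Ctsk and Ctsh lay between -0.08 and 0.35 and did not pass in either fit.

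The remaining proteases and the sugar and lipid hydrolases leaned the other way. Tpp1 (chr7:105394018-105401442) encodes tripeptidyl peptidase 1, the enzyme lost in a childhood neuronal ceroid lipofuscinosis. It was at 425, 416, 345 and 322 CPM in DMSO and at 300, 295, 213 and 197 CPM in LPS. No LPS library reached the lowest DMSO library (log2 fold change -0.58 ± 0.22, edgeR adjusted p = 0.0426). Ctsd was at 2401 to 2851 CPM in DMSO and at 1786 to 2128 CPM in LPS, without overlap. Its log2 ratio within a mouse was -0.34, -0.42, -0.39 and -0.43. In edgeR it did not pass with 16 libraries and passed, as lower, without the doubted library. Ctsa did not pass in either fit. None of the 8 glycosidases and lipid hydrolases passed with 16 libraries, where their changes ran from -0.66 to 0.45 with a median of -0.43. With upper-quartile scaling Gusb and Hexa passed (edgeR adjusted p = 0.0197 and 0.0319), and Gusb also with the mouse as a block (0.0446). Without the doubted library 4 of the 8 fell: Gusb, the beta-glucuronidase gene (-0.67 ± 0.12, edgeR adjusted p = 0.000319), Hexa, of the hexosaminidase alpha chain (-0.66), Gaa, of acid alpha-glucosidase (-0.60), and Asah1, of acid ceramidase (-0.44). Gla was the exception, with a positive value of 0.44 that did not pass. In the fit of 15 libraries 30.6% of all tested genes were lower. Psap, the most abundant of the set, was at -0.48 ± 0.35 and did not pass with 16 or 15 libraries. Its level differed between the mice, from 4165 to 7991 CPM in DMSO, while the log2 ratio of LPS to DMSO within a mouse was -0.45, -0.42, -0.62 and -0.50. With the mouse as a block and 15 libraries Psap fell (-0.51 ± 0.12, edgeR adjusted p = 0.003), and so did 7 of the 8 glycosidases and lipid hydrolases, all but Gla. With that block 35.4% of all tested genes were lower. Npc2, the cholesterol carrier gene, rose by 0.82 ± 0.24 (edgeR adjusted p = 0.0114).

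The subunits of the proton pump diverged. Atp6v0d2 (chr4:19876841-19922605) is the tissue-restricted form of the d subunit of the membrane sector. It was at 8.37, 8.35, 8.56 and 10.7 CPM in DMSO and at 2.91, 4.65, 2.77 and 3.92 CPM in LPS. The groups did not overlap (log2 fold change -1.33 ± 0.31, edgeR adjusted p = 0.00265). Its widely expressed paralog Atp6v0d1 was positive, at 154 to 175 CPM in DMSO and 191 to 249 CPM in LPS, and passed only without the doubted library (0.43 ± 0.14, edgeR adjusted p = 0.0176). Atp6v0d2 is also known from osteoclasts: the summed osteoclast list was lower beside it, from 100 to 113 CPM in DMSO to 51.5 to 71.0 in LPS, and its 8 genes did not go one way. Nfatc1 (92.5 and 29.8 CPM), Itgb3 (5.00 and 0.273) and Dcstamp (0.497 and 0.301) had lower means in LPS, Acp5 (8.52 and 25.1), Mmp9 (2.00 and 5.94) and Ocstamp (0.094 and 0.917) had higher means, and Calcr and Oscar were under 1 CPM in every library. The part of these genes in the result was not tested. In the catalytic sector, Atp6v1h (chr1:5140241-5232752), of the regulatory H subunit, was at 68.7, 65.6, 73.2 and 75.8 CPM in DMSO and at 118, 113, 143 and 140 CPM in LPS. It rose without overlap of the groups (0.86 ± 0.19, edgeR adjusted p = 0.00196). Atp6v1b2 (chr8:69541298-69566363), of the B subunit, was at 368, 386, 364 and 369 CPM in DMSO and at 531, 557, 560 and 590 CPM in LPS (0.59 ± 0.20, edgeR adjusted p = 0.0302). Its partner in the catalytic ring, Atp6v1a, was at -0.28 ± 0.18 and did not pass, although the groups did not overlap.

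Among the membrane proteins, Lamp2 and Lamp1, the 2 major glycoproteins of the lysosomal membrane, differed. Lamp2 (chrX:37490234-37545331) was at 930, 898, 714 and 724 CPM in DMSO and at 1818, 1954, 1221 and 1279 CPM in LPS. All LPS libraries were above all DMSO libraries (log2 fold change 0.94 ± 0.35, edgeR adjusted p = 0.0423). Lamp1 was at -0.18 ± 0.23 and did not pass. Mcoln1 (chr8:3550457-3565232), of the calcium channel TRPML1, was at 74.3, 78.7, 76.3 and 74.3 CPM in DMSO and at 45.1, 51.8, 46.5 and 43.6 CPM in LPS. The groups did not overlap, and the 16-library fit gave -0.70 ± 0.32 (edgeR adjusted p = 0.0948; 0.0311 with upper-quartile scaling), and without the doubted library it fell by 0.71 ± 0.10 (edgeR adjusted p = 2.49e-05). Gpnmb, a transmembrane glycoprotein of macrophages, was at -0.52 ± 0.21 without that library (edgeR adjusted p = 0.0438), and Cd63 and Cd68 did not pass in either fit.

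The 3 transcription factor genes did not move together. Mitf (chr6:97784013-97998310) was at 70.6, 75.9, 74.1 and 72.0 CPM in DMSO and at 168, 164, 189 and 182 CPM in LPS. It rose in all 4 mice by a similar amount (log2 fold change 1.26 ± 0.30, edgeR adjusted p = 0.00336). Tfe3 (chrX:7628799-7641441) was at 162, 176, 164 and 151 CPM in DMSO and at 202, 245, 316 and 288 CPM in LPS. The groups did not overlap, and Tfe3 rose only without the doubted library (0.67 ± 0.23, edgeR adjusted p = 0.0212; 0.190 with all 16). Tfeb (chr17:48047955-48103344) was at 43.5, 43.4, 38.9 and 36.4 CPM in DMSO and at 28.7, 35.4, 29.1 and 21.5 CPM in LPS. Its LPS libraries were all below its DMSO libraries, and it fell only without the doubted library (-0.51 ± 0.21, edgeR adjusted p = 0.0458; 0.326 with all 16).

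**Figure D2:**
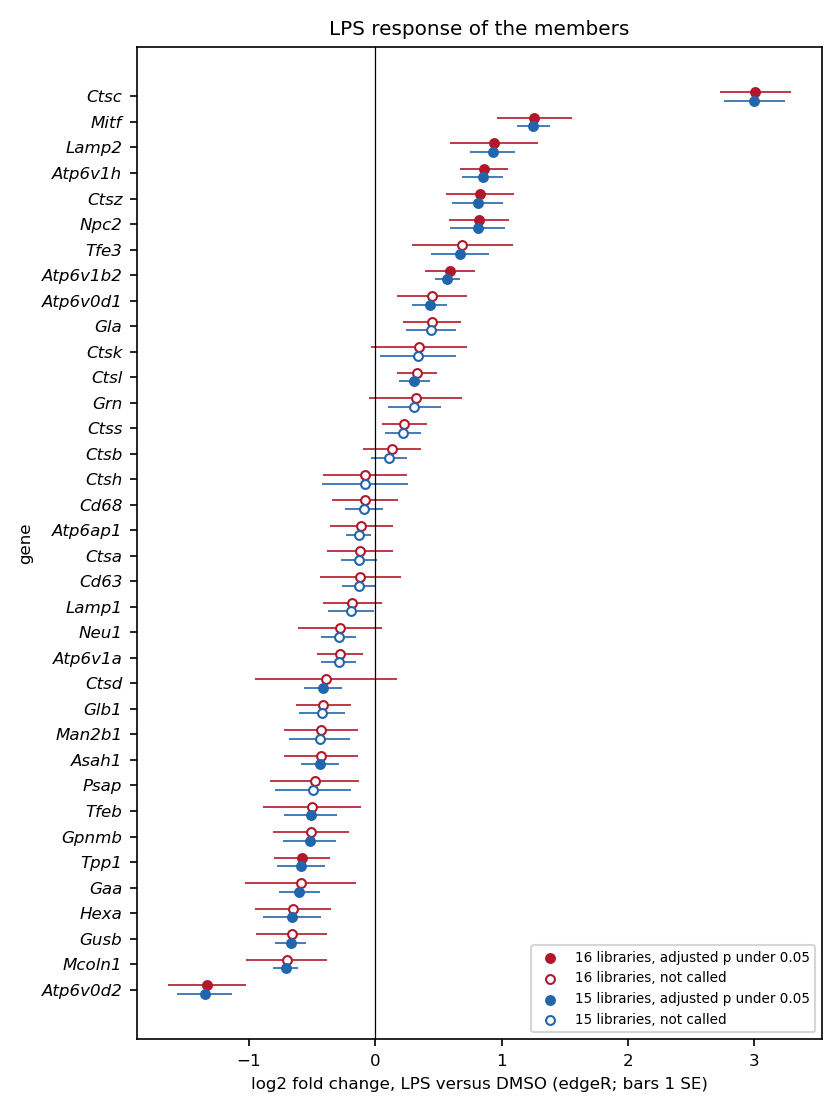
Log2 fold change of LPS against DMSO (horizontal axis, points with bars of 1 SE) for each of the 36 genes (vertical axis), from the fit of 16 libraries in red and of 15 in blue; filled points have an edgeR adjusted p under 0.05. Values hardly differ between the fits, and the bars are shorter and more points are filled with 15 libraries.

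Other genes of the same pathways, from lists of textbook members, also split; the shares of all genes that rose and fell, 19.4% and 20.4%, and the median of all genes, -0.08, stand beside each list. Of 28 further lysosomal hydrolases, 1 rose with LPS (Acp2) and 7 fell, with a median of -0.39. Without the doubted library 5 rose and 14 fell, where 26.8% and 30.6% of all genes did; the counts were 7 and 9 in the membrane list that follows, 5 and 1 in the pump list, 3 and 2 in the sorting list, 2 and 0 among the inhibitors, 7 and 7 among the regulators and 2 and 5 among the autophagy genes. Sgsh, of the heparan sulphate sulphamidase, was at 94.6 to 109 CPM in DMSO and 2.46 to 6.16 CPM in LPS (-4.61 ± 0.53, edgeR adjusted p = 6.66e-06), and Galc, of galactosylceramidase, fell by 2.56 ± 0.25 (edgeR adjusted p = 1.27e-06). Both changes were larger than any fall among the 36. Of 22 other lysosomal membrane genes 5 rose and 8 fell: the peptide transporter gene Slc15a3 rose by 3.96 ± 0.56 and the channel gene Tpcn1 fell by 3.14 ± 0.35 (edgeR adjusted p = 4.78e-05 and 4.33e-06). Of the 13 tested of 15 further pump genes 4 rose and 1 fell, with Atp6v1e1, of the E subunit, at 1.34 ± 0.16. In the sorting list of 10, the cation-dependent mannose 6-phosphate receptor gene M6pr rose by 1.53 ± 0.17 and the adaptor gene Gga2 fell by 2.63 ± 0.43, with 2 genes in each direction. Of the cathepsin inhibitor genes 3 of 10 were tested and only Cst7, the cystatin F gene, passed (4.87 ± 0.58, edgeR adjusted p = 9.21e-06), from 0.546 to 1.18 CPM in DMSO to 11.2 to 35.5 CPM in LPS. Of 22 tested regulators of TFEB and TFE3, 3 rose and 5 fell, and the Rag GTPase gene Rragd was at -3.16 ± 0.43. Of 14 autophagy genes 1 rose and 4 fell, and the kinase gene Ulk1 was at -2.20 ± 0.34.

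SR9009 against DMSO asks whether the REV-ERB agonist alone changes these genes; it shares the DMSO libraries with LPS against DMSO. With all 16 libraries no member passed edgeR's test in either direction, where 0.313% of all tested genes were higher and 0.566% lower. Unadjusted, edgeR gave 2 members under 0.05. DESeq2 called 2 after adjustment (Atp6v1a and Atp6v0d2, both higher) and limma-voom 0. Without the doubted library 1 member was called, Ctsd, higher (background 0.696% higher and 1.08% lower), and with the mouse as a block as well 2, Ctsd and Psap, both higher (1.72% and 2.57%). The block with 16 libraries called none (0.513% and 0.96%). The member median was 0.01 with 16 libraries and 0.10 with 15, beside 0.01 and -0.02 for all genes. The 95% interval of the log2 fold change lay within -1 and 1 for 23 members with 16 libraries and for 29 with 15. For the other 13 and 7 members the interval reaches past a 2-fold change in at least 1 direction.

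Ctsd (chr7:141929648-141941775) encodes cathepsin D, the main aspartic protease of the lysosome. It was at 2505, 2851, 2483 and 2401 CPM in DMSO of mice 1 to 4 and at 170, 3168, 5373 and 4560 CPM in SR9009. The library of mouse 1 was the lowest of all 16 and the other 3 were above every DMSO library, though mouse 2 was only slightly so. The log2 fold change was 0.37 ± 0.56 with 16 libraries (edgeR adjusted p = 0.825) and 0.72 ± 0.16 with 15 (edgeR adjusted p = 0.0306). With all 4 libraries of mouse 1 left out it was 0.71 and did not pass, and limma-voom on the 16 libraries turned its direction, to -0.42. Psap was at 7991, 7819, 4641 and 4165 CPM in DMSO and at 3425, 9183, 8398 and 6877 CPM in SR9009. The groups overlapped, with mice 1 and 2 above mice 3 and 4 in DMSO, and its value was 0.18 ± 0.35 with 16 libraries and 0.36 ± 0.32 with 15. It passed with the mouse as a block and 15 libraries (0.57 ± 0.13, edgeR adjusted p = 0.0341).

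The groups did not overlap for 2 members with all 16 libraries, Atp6v1a and Atp6v0d2, both higher (background 4.9% higher), and for none in the lower direction (4.64%). Atp6v0d2 was at 34.5, 12.6, 16.0 and 18.4 CPM in SR9009 against 8.35 to 10.7 in DMSO (1.18 ± 0.30, edgeR adjusted p = 0.0985; without the doubted library 0.75 ± 0.22, adjusted p = 0.127). Atp6v1a was at 1013, 591, 873 and 805 CPM in SR9009 and at 496 to 571 CPM in DMSO (0.62 ± 0.18, edgeR adjusted p = 0.181; without that library 0.45 ± 0.15, adjusted p = 0.183). In both the doubted library was the highest of the 4. With 15 libraries 9 members were higher without overlap (Ctsb, Ctsd, Cd68, Ctsa, Atp6v1a, Gla, Mcoln1, Atp6v0d2 and Ctsk; background 10.8%) and 1, Ctsc, was lower (background 7.58%). Ctsc was at 256, 249 and 258 CPM in mice 2 to 4 and at 437 CPM in mouse 1, against 376 to 419 in DMSO (-0.41 ± 0.26 with 16 libraries, edgeR adjusted p = 0.56; -0.69 ± 0.25 with 15, adjusted p = 0.262).

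Of those 9 members, 5 carry TCACGTGA in their window (Ctsd, Ctsa, Atp6v1a, Gla and Mcoln1, whose promoters are printed above), out of 6 members that have it, and 2 (Cd68 and Ctsk) come from the 24 members with a window that lacks it. This pattern was chosen after its values were seen. Over all tested genes with a window the same count was 13.2% of 219 with TCACGTGA and 11.5% of 9509 without. With all 16 libraries, Atp6v1a alone of the 6 was higher without overlap. In SR9009 and LPS against LPS, 2 of the 6 (Ctsd and Mcoln1) and 1 of the 24 (Gpnmb) were higher without overlap, and 0 were lower. Of all tested genes there, 6.39% of the 219 were higher and 10.0% lower, and 7.05% and 7.93% of the 9509. These counts are descriptions with no test. In LPS against DMSO the 6 were split, with 1 higher and 3 lower without overlap.

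The SR9009 library of mouse 1 changed values in both directions. It lay below the mean of mice 2 to 4 by more than 2-fold for 20 of the 36 members and above it by more than 2-fold for 4. Of 11717 tested genes with a count in all libraries, 3810 were below and 2796 above by as much. Ctsd was lowest, at -4.65 on the log2 scale, then Gaa at -3.24, Tfe3 at -2.36 and Tfeb at -2.34, and Lamp2 (1.73), Mitf (1.51), Asah1 (1.46) and Atp6v0d2 (1.16) were highest. Across the 36 members the deviation had a Pearson correlation of -0.78 and a Spearman correlation of -0.77 with the GC content of the longest transcript, and across 11618 genes -0.73 and -0.76; these are descriptions across genes of 1 library, which share its depth and composition. The sign of the SR9009 effect turned for 12 of the 36 members when it was left out: Lamp2 went from 0.50 to -0.20, Asah1 from 0.41 to -0.16 and Tfeb from -0.18 to 0.09, none of which passed the test. Mitf went from 0.62 ± 0.30 to 0.03 ± 0.14. The share of all genes whose sign turned was not computed.

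**Figure D3:**
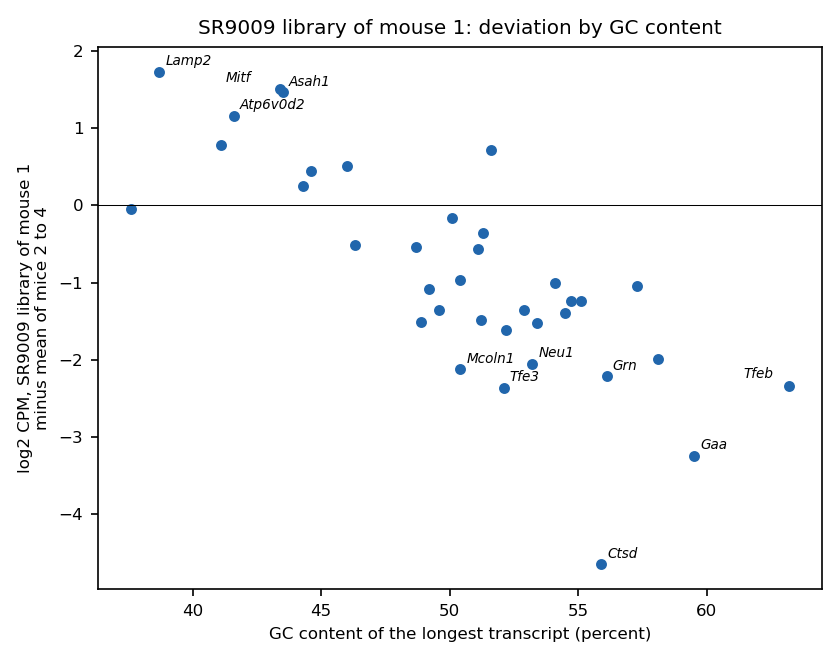
Deviation of the SR9009 library of mouse 1 from the mean of mice 2 to 4 (vertical axis, log2 CPM) against GC content of the longest transcript (horizontal axis, percent), 1 point for each of the 36 genes. Points tend to lie lower at higher GC content, with Lamp2 highest at 1.73 and Ctsd lowest at -4.65.

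**Figure D4:**
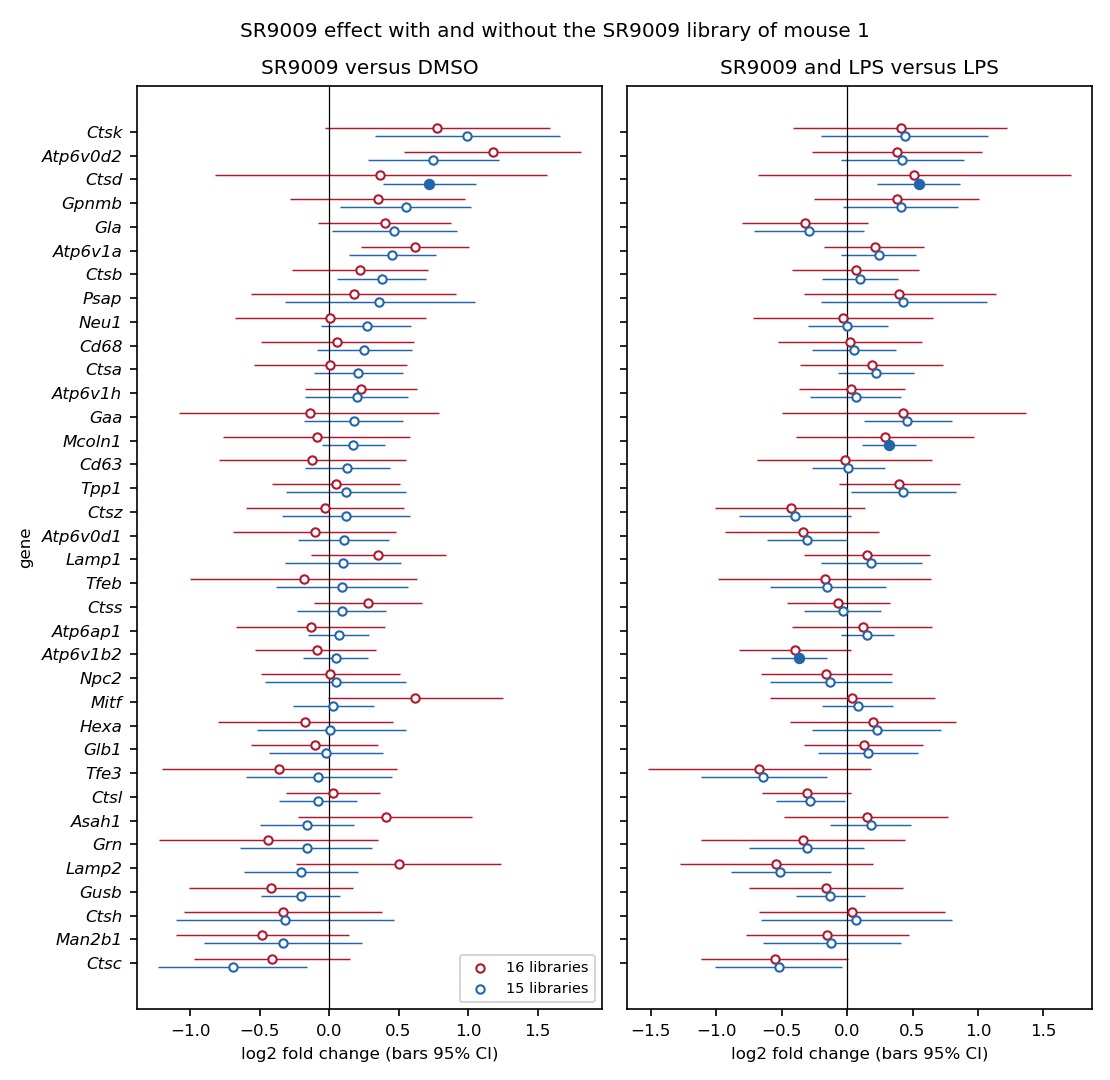
Log2 fold change with its 95% interval (horizontal axes) for each of the 36 genes (vertical axis) for SR9009 against DMSO and for SR9009 and LPS against LPS, from 16 libraries in red and from 15 in blue; filled points have an edgeR adjusted p under 0.05. Only Ctsd is filled on the left, and Ctsd, Mcoln1 and Atp6v1b2 on the right, all with 15 libraries.

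SR9009 and LPS against LPS asks whether SR9009 alters the members in activated cells; it shares the LPS libraries with LPS against DMSO and no library with SR9009 against DMSO. With 16 libraries no member passed edgeR's test, where 1.06% of tested genes were higher and 0.737% lower. None was under 0.05 unadjusted in edgeR, 2 were in DESeq2 and 1 in limma-voom, and neither tool called any. The doubted library is in neither group and enters only through the shared estimate of spread, and without it 2 members were higher, Ctsd and Mcoln1, and 1 lower, Atp6v1b2 (background 6.68% and 4.79%). With the mouse as a block as well, 5 were higher (Ctsd, Tpp1, Gaa, Psap and Mcoln1) and 3 lower (Atp6v1b2, Lamp2 and Tfe3), against a background of 11.6% and 9.7%. The block with 16 libraries called none (2.2% and 1.78%). The member median was 0.04 with 16 libraries and 0.07 with 15, beside 0.02 and 0.05 for all genes.

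Ctsd was at 1980, 2128, 1894 and 1786 CPM in LPS of mice 1 to 4 and at 2572, 2658, 2853 and 3044 CPM in SR9009 and LPS. Every library with SR9009 was above every one without (log2 fold change 0.51 ± 0.56 with 16 libraries, edgeR adjusted p = 0.785; 0.55 ± 0.15 with 15, adjusted p = 0.0277). Mcoln1 was at 52.1, 65.2, 56.5 and 54.9 CPM in SR9009 and LPS, all above the highest LPS library, 51.8 CPM, by a small margin (0.29 ± 0.32 with 16 libraries, edgeR adjusted p = 0.786; 0.32 ± 0.10 with 15, adjusted p = 0.0469). Atp6v1b2 was at 381, 398, 466 and 452 CPM, all below the lowest LPS library, 531 CPM (-0.40 ± 0.20 with 16 libraries, edgeR adjusted p = 0.416; -0.37 ± 0.10 with 15, adjusted p = 0.0321). None of the 3 passed with all libraries of any 1 mouse left out. Gpnmb also did not overlap: it was at 4106 to 4627 CPM with SR9009 and LPS and 2424 to 3993 CPM with LPS, and did not pass (0.38 ± 0.30 with 16 libraries, edgeR adjusted p = 0.653; 0.41 ± 0.21 with 15, adjusted p = 0.215). In all, 3 members were higher without overlap (background 6.66%) and 1 lower (7.78%).

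None of the 3 factor genes passed here with 16 or 15 libraries, and Tfe3 passed with 15 libraries and the block. Tfe3 was at 93.5, 123, 211 and 233 CPM in SR9009 and LPS, below the LPS library of its own mouse in all 4 mice (-0.67 ± 0.40 with 16 libraries, edgeR adjusted p = 0.509; -0.64 ± 0.23 with 15, adjusted p = 0.0858; with the block also -0.68 ± 0.19, adjusted p = 0.0249). Tfeb was at 15.2, 22.1, 31.9 and 32.4 CPM, lower than LPS in mice 1 and 2 and higher in mice 3 and 4 (-0.17 ± 0.39 with 16 libraries, -0.15 ± 0.21 with 15). Mitf was at 172, 135, 222 and 195 CPM, overlapping LPS (0.04 ± 0.30 with 16 libraries, 0.08 ± 0.13 with 15). Ctsc was lower with SR9009 in each mouse, at 2585, 2810, 1816 and 1554 CPM, and overlapped the LPS group through mice 1 and 2 (-0.55 ± 0.26 with 16 libraries, edgeR adjusted p = 0.376; -0.52 ± 0.23 with 15, adjusted p = 0.151).

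Of the pathway lists, 1 gene passed in this comparison with 16 libraries. Lipa, of the lysosomal acid lipase, was at 210 to 264 CPM in LPS and 340 to 894 CPM in SR9009 and LPS (1.40 ± 0.27, edgeR adjusted p = 0.0135; 1.43 ± 0.25 with 15 libraries, adjusted p = 0.00298) and was at -1.8 ± 0.27 in LPS against DMSO. With 15 libraries the further hydrolases had 4 higher of 28, the autophagy genes 3 higher of 14 (Gabarapl1, Ulk1 and Sqstm1) and the TFEB and TFE3 regulators 2 lower of 22. The membrane list had 1 higher and 2 lower of 22, the sorting list 1 higher of 10, and the pump and inhibitor lists 0. In that fit 6.68% of all tested genes were higher and 4.79% lower. In SR9009 against DMSO no gene of any of these lists passed with 16 or with 15 libraries.

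Ratios of groups with and without SR9009 also differed between the mice. Each ratio rests on 1 library per group, so a response of the mouse and noise of a single library cannot be told apart. The difference was not tested. In mouse 1 the ratio of SR9009 to DMSO uses the doubted library. Within each mouse, the median log2 ratio of SR9009 to DMSO over the 36 members was -0.97 in mouse 1, 0.05 in mouse 2, 0.34 in mouse 3 and 0.25 in mouse 4, with 11, 20, 32 and 28 members above 0, while the share of all genes above 0 was 48.5% to 56.1%. In the presence of LPS the medians were -0.08, -0.14, 0.15 and 0.14. Ratios in both mice 3 and 4 exceeded that of mouse 2 for 32 members without LPS (42.8% of all genes) and for 27 with LPS (41.2%).

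Single members show it. Gpnmb was at 5345, 5143, 4471 and 3667 CPM in DMSO and at 2663, 4956, 8790 and 7314 CPM in SR9009. It was about 2-fold higher in mice 3 and 4 and not higher in mouse 2. Ctsk, of the collagen-degrading cathepsin K, was at 4.87, 4.50, 4.61 and 4.44 CPM in DMSO and at 3.14, 5.33, 12.3 and 10.8 CPM in SR9009 (0.78 ± 0.38 with 16 libraries, edgeR adjusted p = 0.436; 0.99 ± 0.31 with 15, adjusted p = 0.168), beside an osteoclast list of 87.2 to 115 CPM in SR9009 and 100 to 113 CPM in DMSO, whose part was not tested. The mice also differed before SR9009: in DMSO, mice 1 and 2 were both above mice 3 and 4 for 23 members (34.8% of all genes), and in each of DMSO, LPS and SR9009 and LPS for 12 (11.9%), among them Psap, Grn, Hexa and Npc2. No label gives a batch, so the mouse and any batch cannot be told apart.

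**Figure D5:**
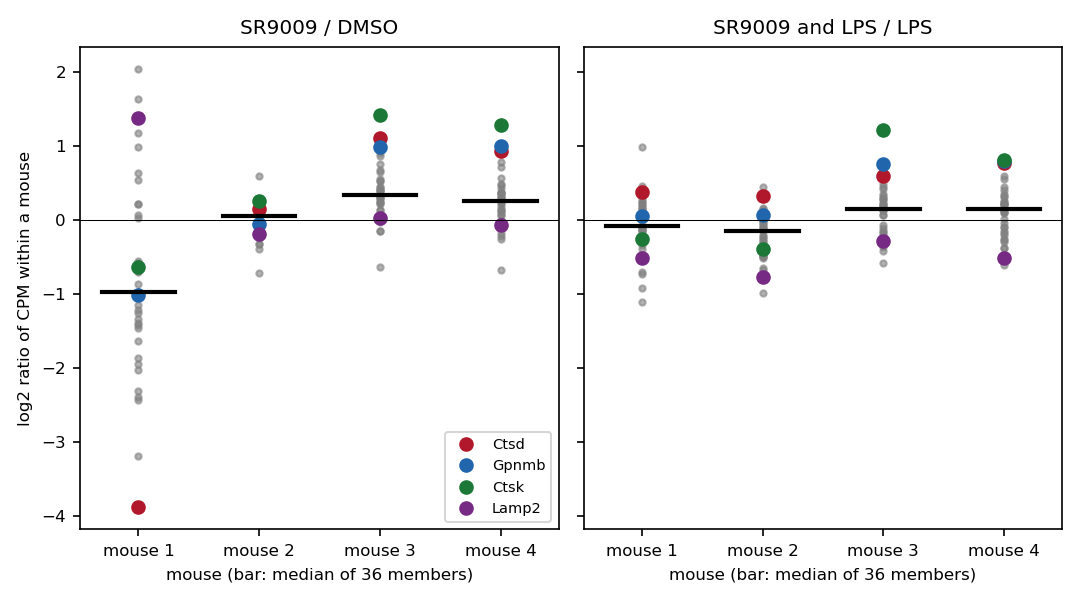
Log2 ratio of CPM within a mouse (vertical axis), SR9009 to DMSO on the left and SR9009 and LPS to LPS on the right, for the 36 genes in each of 4 mice (horizontal axis); bars mark medians and Ctsd, Gpnmb, Ctsk and Lamp2 are coloured. Medians on the left run from -0.97 in mouse 1 to 0.34 in mouse 3.

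SR9009 and LPS against SR9009 gives the LPS response in cells already treated with SR9009; it shares its libraries with the 2 comparisons of SR9009 above. With 16 libraries 3 members rose, Ctsc (2.87 ± 0.28), Atp6v1h (0.67 ± 0.19) and Npc2 (0.66 ± 0.24), and 2 fell, Atp6v0d2 (-2.13 ± 0.31) and Atp6v1a (-0.69 ± 0.18), where 14.5% and 15.8% of tested genes rose and fell. Without the doubted library 5 rose and 8 fell (22.7% and 20.8%), Mitf among them at 1.30 ± 0.14 (edgeR adjusted p = 5e-06; 0.69 ± 0.30 with 16 libraries) and Mcoln1 at -0.56 ± 0.10 (edgeR adjusted p = 0.000566; -0.32 ± 0.32 with 16 libraries), and with the block as well 5 and 15 (25.0% and 25.1%). The block with 16 libraries gave 3 and 2 (16.4% and 17.6%), and upper-quartile scaling 2 higher and 3 lower. Groups did not overlap for 2 members higher and 2 lower with 16 libraries (13.9% and 13.4%) and for 4 and 11 with 15 (20.7% and 26.2%). Without mouse 3 or mouse 4, Npc2, Atp6v1h and Atp6v1a failed (adjusted p up to 0.133), and Npc2 also without mouse 1 or mouse 2. For Ctsc, Mitf, Atp6v1h and Atp6v0d2 the log2 changes with 15 libraries were 3.00, 1.25, 0.85 and -1.35 without SR9009 and 3.17, 1.30, 0.71 and -1.69 with it; with 16 libraries they were 3.01, 1.26, 0.86 and -1.33 without and 2.87, 0.69, 0.67 and -2.13 with it. These comparisons share no library, and the test of the difference itself is the interaction.

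The interaction, the change of the SR9009 effect by LPS, was called for no member in edgeR with 16 or 15 libraries, with or without the mouse as a block (background 0.0% higher and 0.00744% lower with 16 libraries, 0.125% and 0.176% with 15, and with the block 0.0819% and 0.0298% with 16 and 1.19% and 0.791% with 15). With 16 libraries and no adjustment, edgeR gave 1 member under 0.05, Gla, DESeq2 2 and limma-voom 1, and neither of those tools called one. Gla was at 96.8, 98.0, 102 and 106 CPM in DMSO and 98.9, 113, 173 and 146 CPM in SR9009, and at 160, 176, 98.2 and 115 CPM in LPS and 130, 127, 93.7 and 88.2 CPM in SR9009 and LPS. SR9009 libraries were thus above DMSO in each mouse, barely so in mouse 1, and SR9009 and LPS libraries below LPS in each mouse (interaction -0.73 ± 0.32, edgeR adjusted p = 0.661; -0.76 ± 0.29 with 15 libraries, adjusted p = 0.269).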

How the data were processed

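The authors deposited a table of raw gene counts for the series and a table of FPKM values for each library. Per the labels' protocols, polyA RNA was captured for sequencing, and per the submitters' processing notes HISAT2 was used with the genome GRCm39 (mm39). Versions, counting tool, annotation release and strand setting were not given in the sources used here, so antisense and overlapping genes cannot be separated. The deposited counts were tested with edgeR 4.0.16 (R 4.3.3; filterByExpr with a minimum count of 10 and total of 15, TMM, robust quasi-likelihood fit of 4 group means over 16 libraries), adjusted over all tested genes at 0.05, and checked on simulated data. The simulated data had the same spread for all genes, no mouse effect and no library that stands apart. That check therefore does not cover these features of the real libraries. CPM are the counts scaled by TMM. FPKM served only to compare levels between genes. DESeq2 1.42.0 and limma-voom (limma 3.58.1) were alternatives.

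The members, lists and tests were chosen with earlier results of these data known. All members may be named; library values are given for members called in an SR9009 comparison or the interaction, for the 5 called members with the largest LPS change each way, and for Tfeb, Tfe3 and Mitf. Those of Psap, Gpnmb, Ctsk, Gla, Atp6v1a and the other members printed were chosen after their values were seen, as was the pattern with the promoter letters. Of each list, up to 3 called genes were named, with Acp2 and Lipa besides, chosen after their values were seen. Libraries with one number come from the same mouse; deviations from group means correlated at 0.0511 to 0.645 (median 0.298) in 24 same-mouse pairs and at -0.678 to 0.623 (median -0.0859) in 72 others. The GC content is from GENCODE M21 transcripts; promoter windows are RefSeq, GRCm38.p6, a different build from that of the counts.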

Additional observations from a re-analysis of the deposited data

Results flagged for a closer look

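Of 144 groups of 4 libraries (36 members in 4 groups), 11 held a highest or lowest library far from the other 3 by Dixon's test, where chance flags about 5.0% of groups. The SR9009 library of mouse 1 accounts for 8 of the 11. There Ctsc was at 437 CPM, Asah1 at 1221, Lamp2 at 2423 and Mitf at 219, above the other 3 libraries, and Ctsa was at 360, Gaa at 17.7, Cd68 at 426 and Tfe3 at 30.9, below them. In SR9009 Ctsh of mouse 2 was also far above the others, at 196 CPM. In DMSO the far libraries were Ctsl in mouse 1 at 891 CPM and Atp6v0d2 in mouse 4 at 10.7 CPM, both above the rest.

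Gla stood out for opposite directions: SR9009 was above DMSO in all 4 mice, with a median log2 ratio of 0.34, and SR9009 and LPS was below LPS in all 4. The interaction term in edgeR had an adjusted p of 0.661 with 16 libraries and 0.269 with 15.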

How the results depend on the processing

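Besides the fit of 15 libraries, the alternatives were scaling by RLE or upper quartile, no filter or a stricter one, DESeq2, limma-voom, the groups compared alone, the mouse as a replicate block, and each mouse left out. Of 602 values for 43 member results, 479 kept direction and side of the threshold, 36 lost the call, 73 gained it and 14 turned sign. The cause was not tested.

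In LPS versus DMSO, where 9 members were called, 5 were called with no filter, 19 with only the groups compared, 26 with the replicate block without the SR9009 library of mouse 1, and 4 to 20 in leave-one-out fits. In SR9009 versus DMSO (0), DESeq2 called 2, the replicate block without that library 2, and leave-one-out fits 0 to 1. In SR9009 and LPS versus LPS (0), the replicate block without that library called 8 and leave-one-out fits 0 to 3. In SR9009 and LPS versus SR9009 (5), no filter gave 3, only the groups compared 2, the replicate block without that library 20, and leave-one-out fits 2 to 13. The replicate block with all 16 libraries called 10, 0, 0 and 5 members: it added Gusb in LPS versus DMSO (edgeR adjusted p = 0.0446) and changed no other call.

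Signs turned as follows, all among values that did not pass with 16 libraries. Ctsd turned with limma-voom in SR9009 versus DMSO (-0.42) and in SR9009 and LPS versus SR9009 (0.54; leave-one-out -0.59 to 0.06). Tfeb in SR9009 versus DMSO turned to 0.04 with the replicate block without that library, and ran from -0.34 to 0.13 in leave-one-out fits, with 0.09 without that library. Tfeb in SR9009 and LPS versus LPS ran from -0.43 to 0.04 (0.0 without replicate 2), and Mitf there from -0.03 to 0.13. Lamp2 in SR9009 and LPS versus SR9009 turned to 0.12 with limma-voom, 0.05 with the replicate block and 0.53 with the block without that library, and ran from -0.27 to 0.62 in leave-one-out fits.

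Precision is limited by 4 mice a group and by the library that stood apart. The p-values cover variation between 4 mice of 1 strain and sex. Every member had at least 35 counts in every library, so depth did not limit detection of any member, while the fold changes of Atp6v0d2 and Ctsk rest on the fewest counts.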
